A study of Homo sapiens with 17 samples.

Results

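The colony stimulating factors are 3 secreted cytokines named for the blood cell colonies they support in culture. CSF1 (M-CSF) drives the survival and differentiation of monocytes and macrophages. CSF2 (GM-CSF) acts on granulocytes, macrophages and dendritic cells, and CSF3 (G-CSF) on neutrophils and their precursors. Fibroblasts are known to release CSF1 without stimulation, whereas CSF2 and CSF3 are typical inflammatory genes, switched on by interleukin 1 and tumour necrosis factor through NF-kB and held down after transcription by AU-rich elements in their mRNAs. In senescent cells, CSF2 and CSF3 are known as part of the senescence-associated secretory phenotype (SASP), the set of factors that such cells release.

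The 3 genes were taken by symbol from the 62754 genes of each table. All 3 passed the filter on low counts, CSF2 and CSF3 only through the senescent cells. CSF1 (ENSG00000184371) lies on chromosome 1 (GRCh38, 109910242 to 109930992), CSF2 (ENSG00000164400) on chromosome 5 (132073789 to 132076170) and CSF3 (ENSG00000108342) on chromosome 17 (40015361 to 40017813), each on the plus strand, and no annotated gene overlapped them.

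RNA came from IMR90 ER:RAS cells, human lung fibroblasts that carry, from a retrovirus, a constitutively active RAS joined to part of the oestrogen receptor. 4-Hydroxytamoxifen (4OHT) activates the fusion protein and brings on oncogene-induced senescence, whereas DMSO is its solvent. Every culture was also transfected with an siRNA a day before treatment, either non-targeting (siNT) or against SMARCA4 (siSMARCA4), an ATPase subunit of SWI/SNF, which remodels chromatin. Polyadenylated RNA was sequenced on day 7. The 17 libraries formed the groups DMSO siNT with 5 libraries, 4OHT siNT with 6 and 4OHT siSMARCA4 with 6, and DMSO with siSMARCA4 was not analysed here. Each label also held a number after the siRNA name (2 or 4), a replicate number and the tag V or VM, none of which it explains. The tag was VM for the whole 4OHT siNT group (6 of 6), against 3 of 5 DMSO siNT and 3 of 6 4OHT siSMARCA4 libraries. The labels do not say whether libraries came from separate cultures, so p-values measure only the spread between these libraries. By the chi-square per gene between their counts, 2-2VM and 2-3VM of 4OHT siNT were the most alike within a group (4.95, other pairs 11.4 to 165). Whether they share a culture was not tested.

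The tables held 39.1 to 68.98 M counts per library (M, 1e6). SMARCA4 fell from 268 ± 13.2 CPM in 4OHT siNT to 88.0 ± 22.8 CPM in 4OHT siSMARCA4 (SD, n = 6 each; CPM, counts per 1e6 counts, scaled by TMM factors; log2 change -1.61, 0.13 SE, adjusted p 5.14e-07 by edgeR). It stood at 68.4 to 78.2 CPM in the VM and 82.6 to 126 CPM in the V libraries of the knockdown. All 10 fibroblast markers had counts in each group, with summed levels of 23055 to 27759 CPM in DMSO siNT, 13574 to 17695 CPM in 4OHT siNT and 7651 to 11012 CPM in 4OHT siSMARCA4. Of the 10, 1 was called higher and 7 lower with 4OHT and 0 higher and 7 lower with the knockdown, where over all genes 27.0% were called higher and 27.4% lower with 4OHT and 10.4% and 13.8% with the knockdown. The 8 myeloid markers summed to 20.03 to 30.6 CPM over all libraries, nearly all of it CD68, and PTPRC, which marks every leukocyte, had 12, 17 and 21 counts in the 3 groups. The 7 lymphoid markers, nearly all of it CD4, summed to 16.3 to 20.1, 6.77 to 11.8 and 5.57 to 8.40 CPM in DMSO siNT, 4OHT siNT and 4OHT siSMARCA4, CD4 was called lower in each comparison, and CD3D was at 0 in every library. The 5 epithelial markers summed to 82.5 to 120, 53.8 to 71.2 and 26.8 to 47.2 CPM in the same order, and of the 3 tested 2 were called lower with 4OHT and 3 with the knockdown. The 4 endothelial markers summed to 0.855 to 1.95, 3.95 to 5.94 and 2.05 to 4.46 CPM in the same order. Of the 3 tested, 3 were called higher with 4OHT and 1 lower with the knockdown. KDR was not called with 4OHT when scaled by library totals alone (edgeR adjusted p 0.0687). VWF had 307, 1131 and 858 counts in the 3 groups. PECAM1 had 4, 281 and 116 counts and KDR 35, 108 and 59, so that the 4OHT groups took them past the filter on low counts. CDH5 (0, 13 and 13 counts) did not pass it. The part of these levels in the results was not tested. In bulk RNA, fewer expressing cells and less RNA per cell cannot be told apart.

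The sequences in which such control is known to act are shown first. The 3 stretches of 30 bases are those with the most ATTTA pentamers in the 3′ untranslated region of each gene's MANE Select transcript (GENCODE 44, GRCh38, plus strand), with the pentamers, the core of an AU-rich element, in capitals.
CSF1, chr1:109930911-109930940: tttatataaagtcATTTAaatatctATTTA
CSF2, chr5:132076072-132076101: ttttaaaatATTTATTTATTTATTTATTTA
CSF3, chr17:40016975-40017004: tcccatgtATTTAtctctATTTAatATTTA
CSF2 carried 8 pentamers in 318 bases, a density of 25.2 per kb that 0.101% of 18780 genes matched or exceeded. It also held 3 copies of the nonamer TTATTTATT, as many as 0.729% of genes. CSF3 carried 7 pentamers in 854 bases (8.20 per kb, reached by 2.37% of genes) and CSF1 carried 4 in 2154 bases (1.86 per kb, reached by 44.8% of genes), and neither held a nonamer. Across genes the median was 1.55 pentamers per kb, and 8.60% of genes held a nonamer.

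The promoter of CSF2 (RefSeq, GRCh38.p14, plus strand), from 250 bases before to 50 after the transcription start, is shown because NF-kB and its partners are known to act on it. No promoter sequence of CSF1 or CSF3 was at hand, so these were not searched for motifs. Capitals mark motif matches.
CSF2, chr5:132073539-132073838: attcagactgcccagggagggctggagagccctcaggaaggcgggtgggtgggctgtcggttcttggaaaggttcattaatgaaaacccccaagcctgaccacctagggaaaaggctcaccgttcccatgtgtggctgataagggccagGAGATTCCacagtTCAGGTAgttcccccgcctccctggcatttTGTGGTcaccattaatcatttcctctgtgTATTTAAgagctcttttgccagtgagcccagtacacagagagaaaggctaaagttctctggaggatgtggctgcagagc
Both strands were searched. The cytokine elements CK-1 (core GAGATTCC, at -101 from the start) and CK-2 (TCAGGTA, at -88), the RUNX motif (TGTGGT, at -58) and the TATA-like TATTTAA (at -29, added after the sequence had been read) each had 1 match on the plus strand, and none overlapped another. These motifs occurred in 0.869%, 2.19%, 13.1% and 4.52% of 35116 promoters of the same length. CK-1 and CK-2 are elements already known from the CSF2 promoter, so their matches here were fixed in advance. The letters of the AP-1 motif (TGANTCA, 7.71% of promoters) and the C/EBP motif (TTGCNNAA, 10.46%) were not in this window. Nor were those of the NF-kB consensus (GGGRNWYYCC, where R is A or G, W is A or T and Y is C or T, 5.91%). Only exact matches to these letters were counted, so sites that differ from them were missed. The search cannot show that the window lacks sites of these factors.

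The first comparison asked how the 3 genes differ between senescent and growing cells. CSF2 and CSF3 went from close to 0 in DMSO siNT to at least 27.9 CPM in 4OHT siNT, while CSF1 moved the opposite way. All 3 passed the test. CSF2 and CSF3, with 47 and 13 counts in DMSO siNT, passed the filter on low counts only through the 4OHT groups. That filter favours a call of higher with 4OHT for such genes, so these calls add little to the levels below. Of the 19473 genes tested, 27.0% were called higher and 27.4% lower in 4OHT siNT than in DMSO siNT (edgeR adjusted p under 0.05), so a call by itself was common.

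CSF1 was at 71.2, 55.4, 50.9, 50.3 and 41.6 CPM in the 5 DMSO siNT libraries, and ran from 23.6 to 33.0 CPM with a median of 27.1 CPM in the 6 4OHT siNT libraries. Every 4OHT siNT library was below every DMSO siNT library. The mean fell from 53.9 ± 10.9 (SD, n = 5) to 27.8 ± 3.97 CPM (SD, n = 6), a 1.94-fold decrease (log2 change -0.96, 0.21 SE, adjusted p 0.000901 by edgeR).

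CSF2 had 10, 8, 9, 6 and 14 counts in the DMSO siNT libraries, or 0.116 to 0.235 CPM. In 4OHT siNT it ran from 27.9 to 71.4 CPM with a median of 35.7 CPM, so the lowest senescent library stood far above the highest growing one. The means were 0.168 ± 0.0431 (SD, n = 5) and 40.2 ± 15.8 CPM (SD, n = 6), with a fitted log2 change of 7.87 (0.35 SE, adjusted p 1.80e-12 by edgeR). Pooled over libraries, 12365 counts stood against 47, a scaled ratio of 242 (exact 95% interval 182 to 330, for counting error only).

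CSF3 had 8, 0, 0, 4 and 1 counts in the DMSO siNT libraries, where 3 counts, the limit that a count of 0 allows, equal 0.0503 to 0.0597 CPM. In 4OHT siNT it ran from 35.9 to 124 CPM with a median of 62.6 CPM. Its DMSO siNT level lay below this limit in 3 of 5 libraries, and every senescent library was far above it. The fitted log2 change of 10.48 (0.63 SE, adjusted p 8.85e-11 by edgeR) rests on those few counts, and the pooled 21635 against 13 counts gave a scaled ratio of 1534 (exact 95% interval 897 to 2881, for counting error only). The DMSO siNT library 2-1V held 8 of the 13, and without it the log2 change was 11.42 (0.73 SE, adjusted p 5.66e-10 by edgeR).

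**Figure D1:**
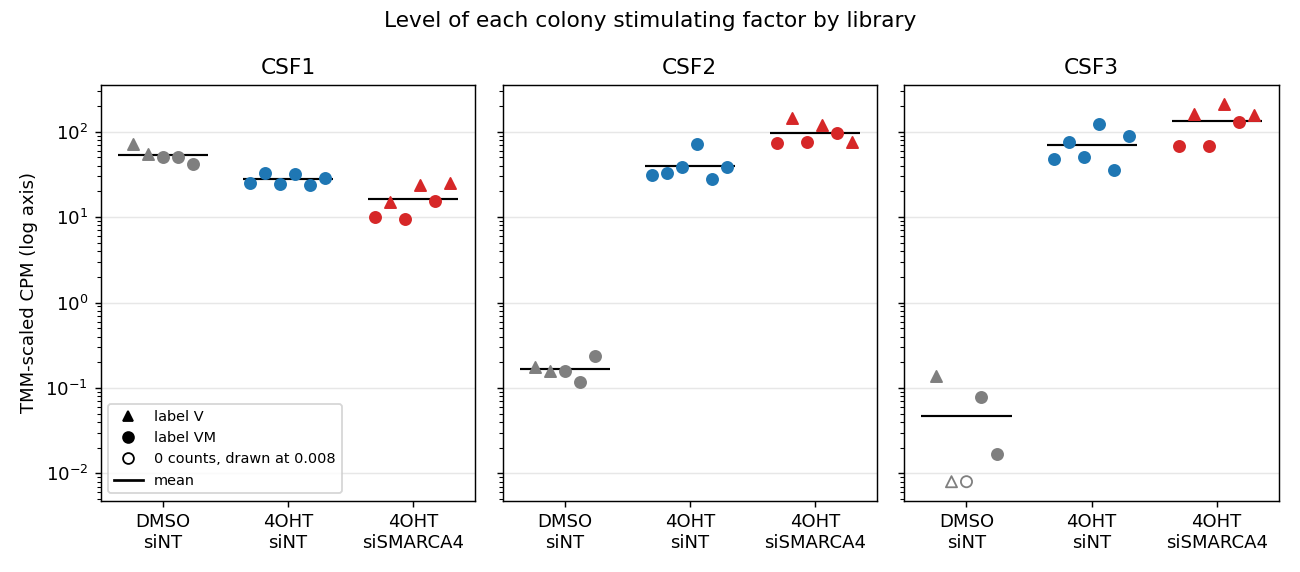
Level of CSF1, CSF2 and CSF3 in each of the 17 libraries, in CPM scaled by TMM factors on a log axis, by group, with triangles for V and circles for VM libraries, bars for group means and open symbols for 0 counts. CSF1 steps down from left to right, while CSF2 and CSF3 rise from at most 0.235 CPM in DMSO siNT to at least 27.9 CPM in every 4OHT library.

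The second comparison asked what SMARCA4 knockdown did to the 3 genes in senescent cells. CSF2 was higher by 2.42-fold, CSF3 was higher by 1.88-fold with a call that several settings removed, and CSF1 was lower by 1.68-fold. Of the genes tested, 10.4% were called higher and 13.8% lower in 4OHT siSMARCA4 than in 4OHT siNT.

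CSF2 ran from 74.4 to 143 CPM in 4OHT siSMARCA4 with a median of 85.7 CPM. Its lowest knockdown library lay just above the highest siNT library at 71.4 CPM, and the next siNT library was at 38.98 CPM. The mean rose to 97.5 ± 28.7 CPM (SD, n = 6; log2 change 1.28, 0.21 SE, adjusted p 0.000309 by edgeR). Over 31 alternative settings the log2 change ran from 1.04 to 1.61 with adjusted p-values up to 0.0493. Within VM libraries, 3 against 6, it was 1.04 (0.23 SE, adjusted p 0.00485 by edgeR).

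CSF3 ran from 67.2 to 212 CPM in 4OHT siSMARCA4 with a median of 144 CPM. Both groups overlapped, since the lowest knockdown libraries, at 67.2 and 68.2 CPM, lay within the 4OHT siNT range. The siNT mean was 70.3 ± 32.6 CPM and the knockdown mean 133 ± 56.7 CPM (SD, 6 libraries each; log2 change 0.91, 0.31 SE, adjusted p 0.0386 by edgeR). The 3 V libraries of the knockdown, at 157, 160 and 212 CPM, all lay above its 3 VM libraries, at 67.2, 68.2 and 131 CPM. Within VM libraries the log2 change was 0.35 (0.33 SE, adjusted p 0.480 by edgeR), and with V or VM as a covariate it was 0.33 (0.31 SE, adjusted p 0.473 by edgeR). The call was also lost without any of 8 single libraries (log2 change 0.73 to 0.93, edgeR adjusted p 0.0607 to 0.0875), namely 4OHT siNT 2-1VM, 4-1VM, 2-2VM and 2-3VM and 4OHT siSMARCA4 2-3V, 4-2V, 4-2VM and 4-3V.

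CSF1 ran from 9.58 to 24.8 CPM in 4OHT siSMARCA4 with a median of 15.1 CPM. The groups overlapped through the 2 highest knockdown libraries, at 24.1 and 24.8 CPM, against a lowest siNT library of 23.6 CPM. The mean fell from 27.8 ± 3.97 to 16.5 ± 6.61 CPM (SD, n = 6 each; log2 change -0.75, 0.21 SE, adjusted p 0.0135 by edgeR). Within VM libraries the log2 change was -1.23 (0.16 SE, adjusted p 0.000117 by edgeR). In the siRNA number 4 libraries alone it was -0.50 (0.17 SE, adjusted p 0.0983 by edgeR).

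**Figure D2:**
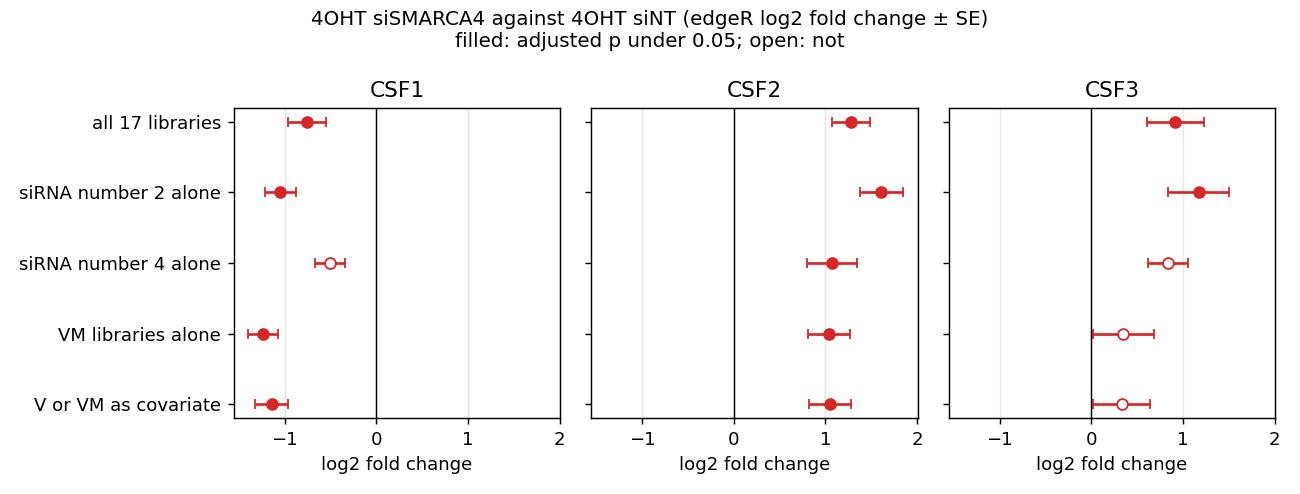
Log2 fold change of CSF1, CSF2 and CSF3 in 4OHT siSMARCA4 against 4OHT siNT, with bars for 1 SE, over all 17 libraries, by siRNA number, in VM libraries alone and with V or VM as a covariate. CSF2 stays above 1 with filled symbols throughout, and CSF1 stays below 0 in each setting. CSF3 drops to 0.35 and 0.33 with open symbols once VM is taken into account. In the siRNA number 4 libraries alone, the symbols of CSF1 and CSF3 are also open.

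The number after the siRNA name also divided the same libraries. In 4OHT siNT, CSF3 was at 35.9 to 50.3 CPM for number 2 and 74.9 to 124 CPM for number 4, and CSF1 at 23.6 to 25.4 and 28.8 to 33.0 CPM, without overlap, whereas CSF2 overlapped at 27.9 to 38.98 and 33.2 to 71.4 CPM. In 4OHT siSMARCA4, CSF1 again did not overlap, at 9.58 to 14.9 and 15.4 to 24.8 CPM, and CSF3 did, at 67.2 to 160 and 131 to 212 CPM. In DMSO siNT the order of CSF1 was the opposite, at 50.9 to 71.2 CPM for number 2 (3 libraries) and 41.6 to 50.3 CPM for number 4 (2 libraries). The share of all genes that separated by number in this way was not computed. In a fit with a term for each number, the knockdown effect on CSF1 was -1.08 (SE 0.20, adjusted p 0.00178) for number 2 and -0.54 (SE 0.20, adjusted p 0.0816) for number 4 on the log2 scale. For CSF2 these were 1.57 (SE 0.28, adjusted p 0.00128) and 1.03 (SE 0.28, adjusted p 0.0225), and for CSF3 1.13 (SE 0.32, adjusted p 0.0236) and 0.80 (SE 0.32, adjusted p 0.108). All 3 effects thus passed the test for number 2, and only that on CSF2 for number 4. All 3 point estimates were nearer to 0 for number 4, but no difference between the numbers passed the test (CSF1 0.54, 0.28 SE, adjusted p 0.408 by edgeR; CSF2 -0.54, 0.39 SE, adjusted p 0.577 by edgeR; CSF3 -0.33, 0.45 SE, adjusted p 0.788 by edgeR). The same difference was called for 0.714% of genes tested. Number 2 held 1 V and 2 VM knockdown libraries, and number 4 held 2 V and 1 VM.

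Against DMSO siNT, the 4OHT siSMARCA4 libraries differed in the same directions, by larger sizes than in the first comparison. CSF1 was lower by 1.71 on the log2 scale (0.22 SE, adjusted p 1.88e-06 by edgeR), CSF2 was higher by 9.15 (0.36 SE, adjusted p 2.93e-13 by edgeR) and CSF3 was higher by 11.39 (0.63 SE, adjusted p 2.41e-11 by edgeR), or by 12.34 without the DMSO siNT library 2-1V. Of all genes, 26.5% were called higher and 28.6% lower. CSF2 and CSF3 had again passed the filter on low counts only through the 4OHT groups. This comparison shares libraries with both others.

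The balance between members was read within each library, where scaling between libraries has no part. In 4OHT siNT the log2 ratio of CSF2 to CSF1 counts ran from 0.01 to 1.18, and in 4OHT siSMARCA4 from 1.61 to 3.27, with no overlap. The difference of means was 2.14 (0.47 ± 0.41 against 2.62 ± 0.59, SD, n = 6 each; 2-sided exact permutation p 0.00216, adjusted over 3 ratios 0.00325). The log2 ratio of CSF3 to CSF1 ran from 0.61 to 1.98 and from 2.67 to 3.42, again with no overlap (difference 1.75; 2-sided exact permutation p 0.00216, adjusted 0.00325, the smallest p that 6 against 6 allows). Within VM libraries the differences were 2.36 and 1.66, each with a 2-sided exact permutation p of 0.0238 (adjusted 0.0357). The log2 ratio of CSF3 to CSF2 overlapped between the groups, at 0.75 ± 0.37 and 0.36 ± 0.50 (SD, n = 6 each; difference -0.39, 2-sided exact permutation p 0.152), and its difference within VM libraries was -0.70 (2-sided exact permutation p 0.0714).

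**Figure D3:**
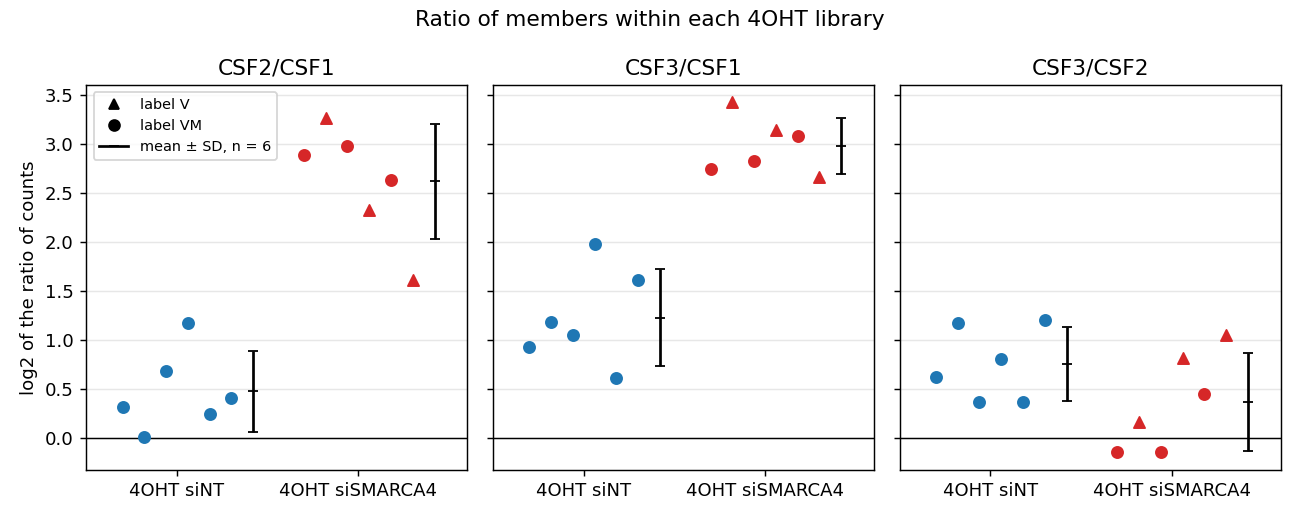
Log2 ratio of counts between pairs of members within each 4OHT library, with triangles for V and circles for VM libraries and mean ± SD beside each group. The CSF2 to CSF1 and CSF3 to CSF1 ratios do not overlap between 4OHT siNT and 4OHT siSMARCA4, and the CSF3 to CSF2 ratio does.

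Levels of different genes can be compared only per length, as CPM per kb of exon (5238 bases for CSF1, 788 for CSF2 and 2220 for CSF3). In DMSO siNT the order was CSF1 at 10.3 ± 2.08, CSF2 at 0.213 ± 0.0546 and CSF3 at 0.0211 ± 0.0274 CPM per kb (SD, n = 5). In 4OHT siNT it was CSF2 at 51.0 ± 20.1, CSF3 at 31.7 ± 14.7 and CSF1 at 5.30 ± 0.758 CPM per kb (SD, n = 6). In 4OHT siSMARCA4 it was CSF2 at 124 ± 36.5, CSF3 at 59.7 ± 25.5 and CSF1 at 3.14 ± 1.26 CPM per kb (SD, n = 6). CSF1 thus went from first to last between growing and senescent cells. CSF2 was above CSF3 per kb in all 12 4OHT libraries. That order rests on the annotated exon lengths, which join all transcripts of a gene, and the counts of CSF3 were above those of CSF2 in 10 of the 12.

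The receptors of the 3 factors were at or near 0 counts, apart from that of CSF1. CSF1R, the receptor of CSF1, was low in every group, at 0.383 ± 0.137 CPM in DMSO siNT (SD, n = 5), 0.666 ± 0.0876 in 4OHT siNT and 0.436 ± 0.0908 in 4OHT siSMARCA4 (SD, n = 6 each). It was higher in 4OHT siNT than in DMSO siNT (log2 change 0.80, 0.24 SE, adjusted p 0.00972 by edgeR) and did not pass the test for the knockdown (-0.60, 0.23 SE, adjusted p 0.0629 by edgeR). The subunits of the CSF2 receptor, CSF2RA and CSF2RB, and the CSF3 receptor, CSF3R, had too few counts to test, with CSF2RA at 4, 4 and 17 counts, CSF2RB at 2, 3 and 2 and CSF3R at 0, 0 and 2 in DMSO siNT, 4OHT siNT and 4OHT siSMARCA4.

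Of 9 other haematopoietic growth factors, 4 were tested, and 3 were higher and 1 lower with 4OHT (27.0% and 27.4% of all genes). With 4OHT, IL11 (log2 change 2.48, 0.29 SE, adjusted p 5.77e-07 by edgeR), LIF (2.39, 0.24 SE, adjusted p 1.32e-07 by edgeR) and KITLG, the stem cell factor (0.45, 0.08 SE, adjusted p 0.000146 by edgeR), rose, and FLT3LG, a dendritic cell growth factor, fell (-2.15, 0.25 SE, adjusted p 6.53e-07 by edgeR). With the knockdown 1 of the 4 rose (10.4% of all genes) and 0 fell (13.8% of all genes). It was KITLG, from 140 ± 6.84 to 216 ± 23.0 CPM (SD, n = 6 each; log2 change 0.63, 0.08 SE, adjusted p 3.65e-05 by edgeR). IL34, the other ligand of CSF1R, had 143, 15 and 21 counts in the 3 groups and was not tested, and IL3, the neighbour of CSF2 on chromosome 5, had 0 counts in all of them.

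Both of the known inducers that could be tested were higher with 4OHT, as were 27.0% of all genes, and 1 of them was higher with the knockdown, as were 10.4% of all genes. IL1A, with 30 counts in DMSO siNT, passed the filter on low counts only through the 4OHT groups. IL1A rose by 9.02 (0.33 SE, adjusted p 1.96e-13 by edgeR) and IL1B by 10.14 on a log2 scale (0.48 SE, adjusted p 3.82e-12 by edgeR) with 4OHT, whereas TNF, with 0, 18 and 15 counts in the 3 groups, had too few to test. With the knockdown IL1A rose by 0.55 (0.18 SE, adjusted p 0.0366 by edgeR) and IL1B did not pass the test (0.17, 0.29 SE, adjusted p 0.723 by edgeR). IL1B was at 1262 to 1777 CPM in the V and 506 to 619 CPM in the VM libraries of the knockdown, as CSF3 was also higher in V. In 4OHT siNT, where all libraries were VM, it was at 694 to 1270 CPM. Among VM libraries, every knockdown library was thus below every siNT library for IL1B. For the listed genes and neighbours other than the members, calls with the knockdown were not examined within VM libraries or with the tag as a covariate.

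Of 18 transcription factors known from CSF promoters, 17 were tested, and 11 were higher and 2 lower with 4OHT. Their median log2 change was 0.52, against 0.00 over all genes, of which 27.0% were called higher and 27.4% lower. This list, like the others, was chosen with earlier results of these data known, so such shares and medians only describe it. NFATC2 (2.69, 0.23 SE, adjusted p 1.10e-08 by edgeR), the NF-kB subunits RELB (1.63, 0.15 SE, adjusted p 3.20e-08 by edgeR) and NFKB2 (1.48, SE 0.12), and CEBPB (1.24, 0.11 SE, adjusted p 2.44e-08 by edgeR) were among the 11. The AP-1 members were called in both directions, with JUN (0.92, SE 0.15) and JUNB (1.14, SE 0.18) among the 11 and FOSL1 (-0.75, SE 0.08) and FOSL2 (-1.26, SE 0.13) as the 2. With the knockdown 6 were higher and 0 lower (median 0.12, against -0.02 over all genes, of which 10.4% were called higher and 13.8% lower): CEBPD (1.00, 0.21 SE, adjusted p 0.00211 by edgeR), REL (0.64, 0.17 SE, adjusted p 0.0100 by edgeR), ETS2 (0.61, 0.10 SE, adjusted p 0.000458 by edgeR), NFATC1 (0.58, 0.13 SE, adjusted p 0.00378 by edgeR), RELB (0.52, 0.14 SE, adjusted p 0.0108 by edgeR) and NFKB2 (0.35, SE 0.11). RELA, the main activating subunit of NF-kB, was at -0.11 (0.10 SE, adjusted p 0.427 by edgeR), and mRNA levels do not show its activity. With library totals alone as the scaling, FOS was also called lower and NFATC1 no longer higher with 4OHT, and CEBPB and NFATC2 were also called higher with the knockdown.

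All 12 genes listed as binders of AU-rich elements were tested, and 2 were higher and 5 lower with 4OHT (median log2 change -0.11). Over all genes, 27.0% were called higher and 27.4% lower. Of the 12, ZC3H12A, RC3H1 and RC3H2 are known to bind stem-loops in mRNAs instead. From DMSO siNT to 4OHT siNT, mean RC3H2 went from 44.7 to 79.5 CPM and mean RC3H1 from 20.3 to 21.5 CPM. ZFP36 (tristetraprolin), which promotes decay of AU-rich mRNAs, fell by 1.12 (0.17 SE, adjusted p 2.24e-05 by edgeR), and its relative ZFP36L2 fell by 1.88 (0.14 SE, adjusted p 1.57e-09 by edgeR). ZC3H12A (regnase-1), which cleaves inflammatory mRNAs, rose by 3.70 (0.22 SE, adjusted p 1.12e-10 by edgeR). With the knockdown 1 was higher, TIAL1 (0.29, 0.07 SE, adjusted p 0.00571 by edgeR), and 2 were lower, ZFP36 (-0.54, 0.17 SE, adjusted p 0.0246 by edgeR) and ZFP36L1 (-0.30, 0.10 SE, adjusted p 0.0395 by edgeR), the last not with library totals alone as the scaling (edgeR adjusted p 0.0623), where 10.4% and 13.8% of all genes were called. That scaling also called ELAVL1 and TIAL1 lower with 4OHT.

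All 15 genes of receptor signalling and feedback were tested, with 6 higher and 4 lower after 4OHT, to which library totals alone added JAK2 as lower. Of all genes 27.0% were called higher and 27.4% lower. SOCS1, a feedback inhibitor of JAK kinases, fell by 1.87 (0.24 SE, adjusted p 1.97e-06 by edgeR), while SOCS3, which restrains the CSF3 receptor, rose by 0.74 (0.20 SE, adjusted p 0.00474 by edgeR). With the knockdown, where 10.4% of all genes were called higher and 13.8% lower, 0 were higher and 1 lower, TYK2, a JAK family kinase (-0.29, 0.09 SE, adjusted p 0.0258 by edgeR).

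**Figure D4:**
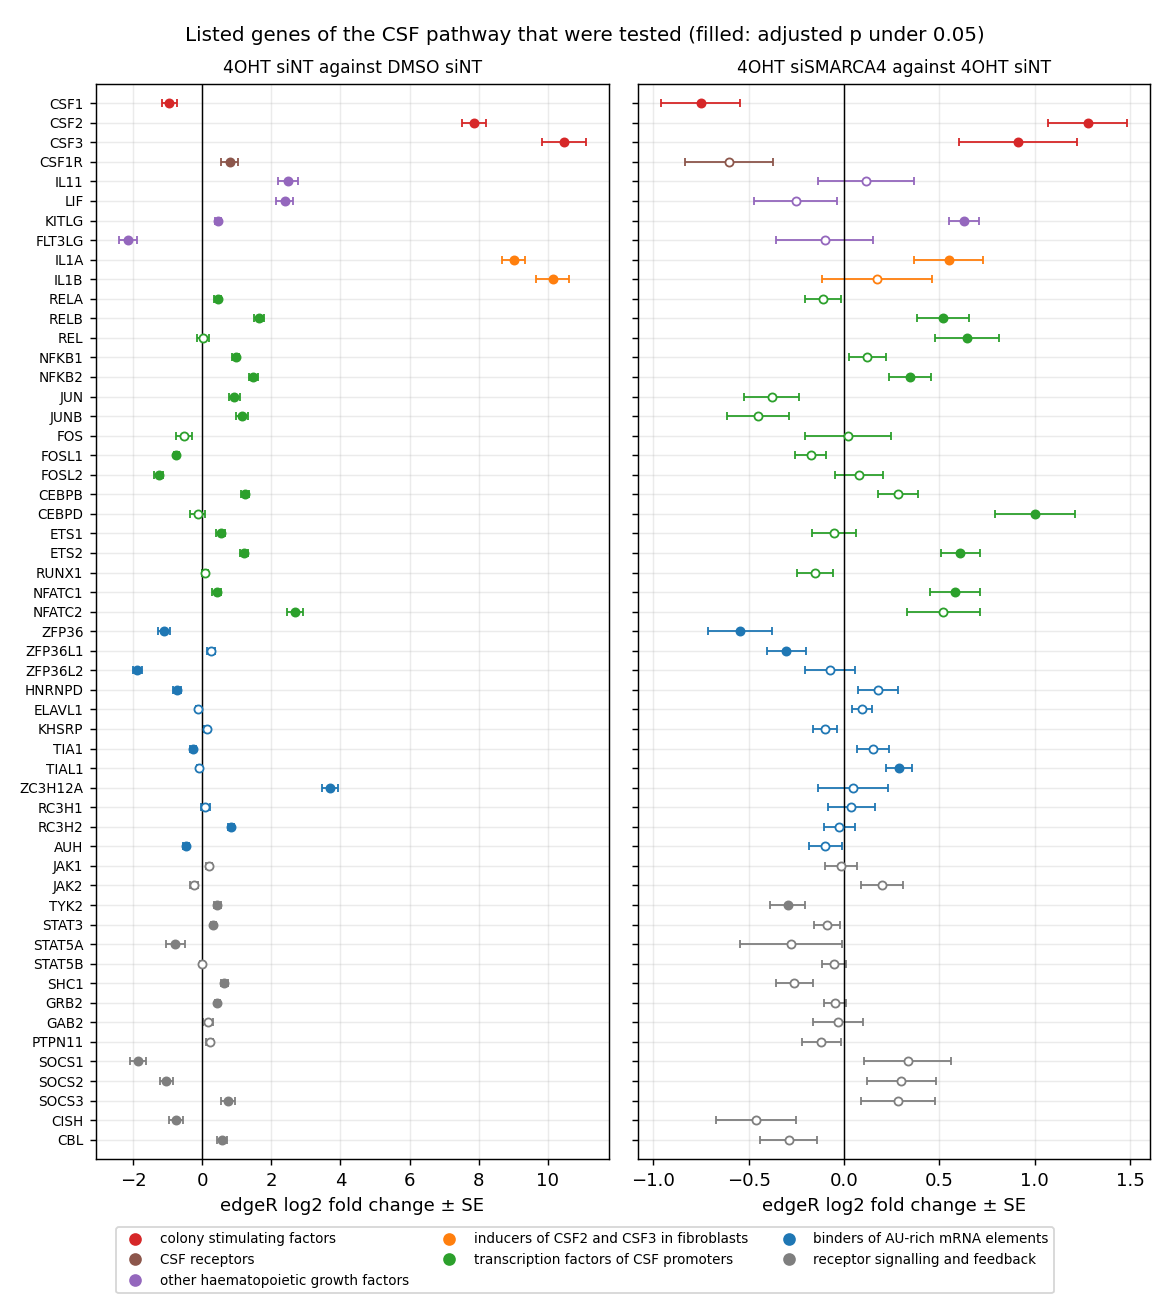
Log2 fold change with bars for 1 SE of every tested gene of the 7 lists drawn, coloured by list. The lists are the members, their receptors, other growth factors, inducers, transcription factors, genes listed as AU-rich element binders and receptor signalling. No cell type markers are drawn. The left shows 4OHT siNT against DMSO siNT and the right 4OHT siSMARCA4 against 4OHT siNT, on separate scales. Filled symbols mark an adjusted p under 0.05. On the left CSF2 and CSF3 stand with IL1A and IL1B at 7.87 to 10.48, and on the right, among the genes drawn, CSF2 lies highest at 1.28 and CSF1 lowest at -0.75.

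The genes around the members did not share their size of change. Within 100 kb, 1 protein-coding neighbour of CSF1 and 6 of 8 of CSF3 were tested, and none of 3 around CSF2. AHCYL1, beside CSF1, was higher by 0.42 with 4OHT (0.11 SE, adjusted p 0.00407 by edgeR) and at -0.18 with the knockdown (0.11 SE, adjusted p 0.244 by edgeR). Around CSF3, 2 of 6 genes were higher and 2 lower with 4OHT, where 27.0% and 27.4% of all genes were. Of these, THRA, a thyroid hormone receptor, moved most (-1.08, 0.09 SE, adjusted p 3.81e-09 by edgeR). With the knockdown 0 of 6 were higher, against 10.4% of all genes higher and 13.8% lower, and THRA (-0.63, 0.08 SE, adjusted p 4.97e-05 by edgeR) and MED24, a Mediator subunit (-0.24, 0.07 SE, adjusted p 0.0222 by edgeR), were lower. Repeat loci within 5 kb with at least 10 counts over all libraries numbered 5 at CSF1, with 13 to 20 counts each, and 0 at CSF2 and CSF3.

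The genes most like each member across libraries were ranked by Pearson's r of log2 CPM over 14193 genes, as a description, since the points share 3 groups. Over all 17 libraries CSF2 was closest to POU2F2 (r = 0.998), the chemokine CXCL8 (0.997) and IER3 (0.996). CSF3 was closest to IL1A (0.996), the chemokine CCL20 (0.995) and IL1B (0.993). CSF1 was closest to IVD (0.982), SARDH (0.980) and MYD88 (0.978). With the group means removed, the closest were JAK3 for CSF1 (0.951), LRRC73 for CSF2 (0.854) and the unnamed gene ENSG00000284691 for CSF3 (0.883). POU2F2 stayed among the 5 nearest of CSF2 (0.844) and IVD among those of CSF1 (0.928).

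Within groups of 6 libraries, 18 correlations between members, IL1B and SMARCA4 were computed on log2 CPM. None passed after adjustment by Pearson's r (smallest adjusted p 0.075, exact permutation), and 7 had an unadjusted p under 0.05. IL1B and CSF3 in 4OHT siSMARCA4 had r = 0.922 (exact permutation p 0.00833, adjusted 0.075; Spearman's rho 0.943, exact permutation p 0.0167, adjusted 0.15), and r = 0.847 without the 2 libraries farthest in IL1B. Both genes were higher in every V than in every VM library of that group, so these values also hold the difference by tag. In 4OHT siNT the same pair had r = 0.711 (exact permutation p 0.114, adjusted 0.186; Spearman's rho 0.486, exact permutation p 0.356, adjusted 0.457), which turned to -0.504 without the 2 farthest libraries. SMARCA4 and CSF1 in 4OHT siNT had r = 0.938 (exact permutation p 0.00833, adjusted 0.075; Spearman's rho 0.943, exact permutation p 0.0167, adjusted 0.15), and r = 0.786 without the 2 libraries farthest in SMARCA4. In 4OHT siSMARCA4 this pair had r = 0.577 (exact permutation p 0.222, adjusted 0.267). SMARCA4 with CSF2 and with CSF3 had r = 0.659 and 0.836 in 4OHT siNT, and 0.739 and 0.731 in 4OHT siSMARCA4. CSF1 and CSF3 had r = 0.858 in 4OHT siNT and 0.911 in 4OHT siSMARCA4. In 4OHT siNT, SMARCA4 was at 252 to 264.0 CPM for siRNA number 2 and 264.4 to 285 CPM for number 4. The tags V and VM left 3 libraries each in 4OHT siSMARCA4, too few for a value within either, and all 6 libraries of 4OHT siNT were VM.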

How the data were processed

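Processed tables of 17 RNA-seq libraries were used. The authors deposited expected counts per gene and per repeat locus, not normalised. Before that they trimmed paired-end reads (Cutadapt 4.7), aligned them to GRCh38 (HISAT2 2.2.1) and counted them by strand with TElocal, which shares multi-mapping pairs by maximum likelihood. The methods name an earlier Ensembl annotation, yet 62700 of 62754 gene IDs were in GENCODE 44, which gave the symbols, positions and exon lengths used here.

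Counts were rounded, repeat loci summed into 1261 subfamilies, and genes and subfamilies fitted together by the edgeR 4.0.16 quasi-likelihood test (filterByExpr with minimum count 10 and minimum total 15, TMM scaling, 1 term per group, R 4.3.3), with Benjamini-Hochberg adjustment over the 19473 genes tested and a call at 0.05. The fit was tested on simulated data. CPM were scaled by TMM factors, and log2 CPM for correlations had a prior count of 2. Ratios of members were log2 ratios of counts + 0.5, compared by exact permutation (SciPy 1.17.1). Alternatives were RLE or no scaling, no filter, genes alone, a prior count of 2, the 2 groups alone, subsets and covariates of the labels, replicate blocks, each library left out, and DESeq2 1.42.0, the tool of the authors. Floors of 3 counts and 95% intervals cover counting error only.

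The members, the gene lists and the tests were chosen with earlier results of these data known. Genes were named when they were members, in a list (by count, with examples), protein-coding within 100 kb, or among the 5 nearest to a member by r.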

Additional observations from a re-analysis of the deposited data

Results flagged for a closer look

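CSF2 in the 4OHT siNT library 4-2VM was at 71.4 CPM (71.35), the highest of the 6 libraries of its group and apart from the next at 38.98 CPM, a gap of 0.745 of the group's range. It was the only 1 of 18 groups of values examined (the CPM of the members and SMARCA4 in each group, and the ratios of members) that stood apart in this way, and chance flags about 1 in 20 groups. The same library also had the highest CSF3 (124 CPM) and IL1B (1270 CPM) of its group. Without it, the CSF2 rise with the knockdown was 1.52 on the log2 scale.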

How the results depend on the processing

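Over 31 alternatives, the calls and directions of CSF1, CSF2 and CSF3 held for 4OHT siNT against DMSO siNT (log2 fold changes -1.31 to -0.61, 7.60 to 8.04 and 9.70 to 11.42) and for 4OHT siSMARCA4 against DMSO siNT, and that of CSF2 held for the knockdown (1.04 to 1.61). The CSF1 decrease with the knockdown kept its call in 30 of 31, with -0.50 (edgeR adjusted p 0.0983) in siRNA number 4 libraries alone.

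The CSF3 rise with the knockdown lost its call in 15 of 31 alternatives and kept its direction in all of them. It was 0.91 (edgeR adjusted p 0.0504) with the 2 groups alone, 0.84 (0.0513) with siRNA number 4 alone, 0.35 (0.480) with VM libraries alone, 0.33 (0.473) with V or VM as a covariate and 0.92 (0.119) by DESeq2. Without each library in turn it ran from 0.73 to 1.15 (edgeR adjusted p 0.0126 to 0.0875). With a replicate block it was 0.84 (edgeR adjusted p 0.0673) by replicate number and 0.48 (0.110) by the full label. The cause was not tested.

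Whether libraries with the same replicate number were paired is not known. Deviations from the group means correlated at -0.45 to 0.53 (median 0.05) over 32 pairs with the same replicate number. The values were -0.45 to 0.30 (median 0.05) over 7 pairs with the same full label and -0.53 to 0.61 (median -0.03) over 64 other pairs. Such deviations also hold differences by siRNA number and by V or VM, so they cannot decide this. The replicate block changed no other call of a member. Genes called in the knockdown comparison numbered 4703, against 1198 with siRNA number 4 alone (4479 with number 2 alone, and the cause was not tested) and 3045 with the full-label replicate block, and that block left 6329 of 10725 in 4OHT siSMARCA4 against DMSO siNT. The CSF2 to CSF1 ratio differed by 2.63 and 1.66, and the CSF3 to CSF1 ratio by 2.13 and 1.37, in siRNA number 2 and number 4 libraries alone, where 3 against 3 cannot give an exact p below 0.1. Scaling by library totals alone shifted the median of all genes by -0.11 for 4OHT siNT against DMSO siNT.

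In DMSO siNT, CSF3 had 13 counts and CSF2 47 over 5 libraries, so their fold changes rest on few counts. Library 2-1V held 8 of the CSF3 counts, and the intervals for counting error do not cover such spread between libraries.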
